A study of Mus musculus with 9 samples.

Results

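The carbonic anhydrase genes Car2, Car4, Car7, Car12, Car13 and Car14 were followed across 9 RNA sequencing libraries of mouse embryonic stem cells. They were taken by symbol from the 33924 genes of the table, so they are 6 of the 16 carbonic anhydrase genes listed there. They were chosen by their measured levels in the 3 groups of these libraries, so those levels and differences are a description and support nothing further. The study asked which transcripts differ when UTX or MLL4, both partners of enhancer activation, is perturbed. Of the 9 libraries, 3 were of UTX knockout cells, genotype UTX Knockout, named A6 in all 3 titles. Another 3 were labelled MLL4 Knockdown, named JM8A with a further number. The last 3 were UTX Wildtype, named JM8A. All cells were labelled male and untreated, and were grown on gelatin in serum with the cytokine LIF. A6 may be a single clone, and the labels do not say, so a difference of clone or line cannot be told apart from the perturbation. Whether replicate libraries are independent cultures is not in the labels, and each p-value therefore reflects only how far these libraries vary, in part perhaps technically.

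Carbonic anhydrases are zinc enzymes that interconvert carbon dioxide and bicarbonate with release of a proton. They thereby serve pH control, gas exchange and the supply of bicarbonate to transporters and biosynthesis. The isoforms differ mainly in where they sit. Car2, Car7 and Car13 are cytosolic. Car4 is held on the outer face of the plasma membrane by a lipid anchor, and Car12 and Car14 span the membrane with the catalytic domain outside. Car8, Car10 and Car11 keep the fold but lack the enzyme activity.

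Depth ran from 18570746 to 23874816 counts per library, and 14772 genes passed the filter on low counts, among them all 6 members and 6 of the 10 other carbonic anhydrases. Kdm6a, which encodes UTX, averaged 16.4 CPM ± 3.33 (read counts scaled to library size) in the UTX knockout and 78.9 ± 18.9 CPM in wild type (SD, n = 3 each). Kmt2d, which encodes MLL4 and is listed as Mll2, stood at 72.1 ± 1.21 CPM under the MLL4 knockdown label and at 82.9 ± 37.9 CPM in wild type; its log2 fold change was -0.20, with an SE of 0.27 and an adjusted p of 0.624 by edgeR. Its wild type libraries were spread (86.2, 43.5 and 119 CPM). It had 71.0, 72.0 and 73.4 CPM in the labelled MLL4 knockdown, below the 109.7, 96.9 and 130.1 CPM of the UTX knockout, where the log2 difference of -0.64 (SE 0.27) did not pass (adjusted p = 0.0987). The targeted transcript thus did not differ from wild type beyond this spread, and every direction below drawn from those libraries rests on the label. Uty, the Y-linked relative of Kdm6a, had 0.785, 0.908 and 0.789 CPM in the UTX knockout and 1.13, 0.724 and 1.11 CPM in the labelled MLL4 knockdown, against 16.8, 9.67 and 15.7 CPM in wild type. All 4 tested Y-linked genes fell in both perturbed groups, with median log2 fold changes of -3.93 and -4.18. Both perturbed groups thus differ from wild type in Y-linked RNA, whatever their shared label, and the part of this in the values below was not tested. The 10 pluripotency markers summed to 6489 to 7078 CPM in the UTX knockout, 6511 to 7178 CPM in the labelled MLL4 knockdown and 5178 to 6217 CPM in wild type. Single markers behind these sums differed in direction. Of the 10, 4 were called up and 2 down in the labelled MLL4 knockdown, and 1 up and 1 down in the UTX knockout. Under the MLL4 knockdown label Klf4 had 517 to 637 CPM, against 162 to 263 CPM in wild type. Dppa5a had 396 to 559 against 667 to 1301 CPM in these groups, and Zfp42 41.7 to 51.4 against 71.1 to 90.7 CPM. Wild type replicate 1 stood apart from the other wild type libraries in markers of the trophectoderm, the outer layer of the blastocyst. In its 9 listed markers it summed to 81.0 CPM, against 525 and 457 CPM in wild type replicates 2 and 3. The UTX knockout libraries summed to 81.5 to 117 CPM and those labelled MLL4 knockdown to 68.8 to 89.1 CPM. Krt8 and Krt18 made up most of the 2 high wild type sums (211 and 231 CPM in replicate 2, 170 and 184 in replicate 3). Eomes had 10.3 to 17.9 CPM over the 9 libraries. Tead4 was higher in the UTX knockout (46.1 to 53.2 CPM) than in wild type (15.4 to 38.7 CPM). Among 8 tested trophectoderm markers, 6 were called down and 1 up in the UTX knockout, beside 8.92% and 6.55% of all tested genes. In the labelled MLL4 knockdown 5 were called down and 0 up, beside 15.8% and 10.8%. Feeder or fibroblast markers summed to 12.5 to 15.8, 7.59 to 9.65 and 17.7 to 27.4 CPM in the UTX knockout, the labelled MLL4 knockdown and wild type, with Lum and Fap at 0 in all 9 libraries. Blood markers summed to at most 7.50 CPM in any library, with the globin Hbb-b1 at 0. Primitive endoderm markers summed to 319 to 472 CPM in the UTX knockout, 305 to 349 CPM in the labelled MLL4 knockdown and 157 to 256 CPM in wild type. Lama1 was the largest part of each sum. It had 244 to 336 CPM in the UTX knockout, 178 to 189 in the labelled MLL4 knockdown and 85.8 to 131 in wild type. Gata6, Sox17, Sox7 and Foxa2 had at most 3.55 CPM. Dab2 was lower in the UTX knockout (1.57 to 2.46 CPM) than in wild type (3.49 to 8.05 CPM), and had 9.36 to 10.5 CPM in the labelled MLL4 knockdown. Pdgfra had 2.37 to 3.20 CPM in the UTX knockout, 6.72 to 7.97 in the labelled MLL4 knockdown and 1.02 to 1.51 in wild type. Of 8 tested primitive endoderm markers, 3 were called up and 1 down in the UTX knockout, beside 6.55% and 8.92% of all tested genes. In the labelled MLL4 knockdown 4 were called up and 0 down, beside 10.8% and 15.8%. The part of these marker differences in the values below was not tested.

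The sequences just before the gene starts of Car4, Car12 and Car14 are shown because these 3 membrane-bound isoforms were the members that lay lower in the labelled MLL4 knockdown without overlap with wild type. RefSeq promoters of build GRCm38.p6 were matched for 4 of the 6 members and 7 of the 10 others; Car2 and Car13 had no entry. The processing notes name only other builds for the count table, so these coordinates are those of RefSeq and not of the table. Each line gives the 250 bases before the start, 5′ to 3′ on the gene's strand, which are chr11:84957504-84957753 on the plus strand for Car4, chr9:66713436-66713685 on the plus strand for Car12 and chr3:95904686-95904935 on the minus strand for Car14. Capitals mark matches on either strand. The motifs searched were the core of the hypoxia response element, ACGTG, and the GC box, GGGCGG. The letters of a TATA box, TATAAA, were searched as well. So were those of a TEAD site, GGAATG, and of a STAT site, TTCNNNGAA.
Car4: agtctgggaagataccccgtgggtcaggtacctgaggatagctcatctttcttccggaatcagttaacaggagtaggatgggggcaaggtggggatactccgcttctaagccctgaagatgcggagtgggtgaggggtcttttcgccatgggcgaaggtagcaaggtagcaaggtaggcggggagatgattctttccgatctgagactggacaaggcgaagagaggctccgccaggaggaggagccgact
Car12: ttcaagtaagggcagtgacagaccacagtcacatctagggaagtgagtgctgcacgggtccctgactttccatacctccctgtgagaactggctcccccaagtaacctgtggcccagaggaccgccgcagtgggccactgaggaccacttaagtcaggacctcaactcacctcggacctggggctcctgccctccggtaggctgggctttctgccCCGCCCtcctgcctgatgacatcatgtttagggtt
Car14: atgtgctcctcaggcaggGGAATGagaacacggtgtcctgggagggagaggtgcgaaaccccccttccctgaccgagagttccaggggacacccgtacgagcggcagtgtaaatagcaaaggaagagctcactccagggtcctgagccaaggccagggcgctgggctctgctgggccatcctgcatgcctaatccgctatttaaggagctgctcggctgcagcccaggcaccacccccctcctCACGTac
Within 250 bases before to 50 bases after the start, Car4 held ACGTG on the minus strand at positions 3 to 7 after the start and TATAAA at 43 to 48 after it. Car12 held a GC box on the minus strand at -35 to -30. Car14 held a TEAD match at -232 to -227 and ACGTG on the minus strand at -7 to -3. No match here overlapped another. Of 32851 promoters of the same length, 19.6% held ACGTG, 35.7% the GC box, 13.6% TATAAA, 14.7% the TEAD letters and 8.3% the STAT letters. Over the 300 bases, CpG dinucleotides numbered 15 in Car4, 9 in Car12 and 13 in Car14, against a median of 7 over all promoters.

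The membrane-anchored Car4 was the most abundant carbonic anhydrase per length in wild type cells and was much lower in both perturbed groups. It had 2.75, 1.30 and 2.32 CPM in UTX knockout replicates 1 to 3, 6.29, 2.94 and 3.19 CPM in the labelled MLL4 knockdown, and 30.7, 42.6 and 40.1 CPM in wild type. All 6 perturbed libraries lay far below the lowest wild type library. The fitted log2 fold change was -4.16 (SE 0.33), a 17.9-fold lower level, in the UTX knockout. In the labelled MLL4 knockdown it was -3.20 (SE 0.31), 9.21-fold lower. Both comparisons share the wild type libraries. Within lane 2 alone, which held replicates 1 and 3 of each group, the values were -3.80 (adjusted p = 0.0155) and -2.91 (0.00594). In bulk RNA, fewer cells that express a gene and less RNA per cell cannot be told apart.

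Car2, the highly active cytosolic isoform of red cells, kidney and osteoclasts, was lowest in the UTX knockout and intermediate in the labelled MLL4 knockdown. It had 2.85, 2.51 and 2.55 CPM in UTX knockout replicates 1 to 3. Those labelled MLL4 knockdown had 13.4, 9.87 and 7.71 CPM, against 11.5, 35.5 and 31.5 CPM in wild type. The UTX knockout libraries were close together and below all others, while wild type replicate 1 lay within the range of the labelled MLL4 knockdown. The log2 fold change was -3.31 (SE 0.39) in the UTX knockout and -1.35 (SE 0.35) in the labelled MLL4 knockdown. Wild type replicate 1, the low library, was also low in the trophectoderm markers given above. Without it both values were larger, -3.65 and -1.68, and within lane 2 they were -2.99 (adjusted p = 0.0566) and -1.03 (0.202). The part of the trophectoderm markers in the Car2 difference was not tested. The fall in the labelled MLL4 knockdown did not pass without wild type replicate 2 (-1.06, adjusted p = 0.0576), without replicate 2 (-1.31, 0.0602) or replicate 3 (-1.17, 0.0676) of the labelled MLL4 knockdown, with a range of 0.00017 to 0.202 over all alternatives.

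Car13, a cytosolic isoform of broad tissue distribution, was the member that was higher in both perturbed groups. It had 30.9, 40.8 and 37.6 CPM in the UTX knockout, 30.7, 29.7 and 29.5 CPM in the labelled MLL4 knockdown and 23.6, 16.8 and 18.99 CPM in wild type. Every perturbed library lay above every wild type library, and the 3 libraries labelled MLL4 knockdown differed little among themselves. The log2 fold change was 0.88 (SE 0.15) in the UTX knockout and 0.60 (SE 0.15) in the labelled MLL4 knockdown, 1.84-fold and 1.51-fold higher levels. Within lane 2 alone the values were 0.69 (adjusted p = 0.106) and 0.50 (0.11), so neither passed there, within ranges of 5.19e-06 to 0.106 and 0.00198 to 0.11 over all alternatives.

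Car14, a transmembrane isoform known from brain, retina and liver, was low in all cells and lowest in the labelled MLL4 knockdown. It had 1.28, 1.60 and 1.53 CPM in the UTX knockout, 0.753, 0.317 and 0.487 CPM in the labelled MLL4 knockdown and 4.57, 2.39 and 2.42 CPM in wild type. The 3 groups did not overlap one another. The log2 fold change was -2.59 (SE 0.38) in the labelled MLL4 knockdown, from 7 to 14 counts against 54 to 88 in wild type, and -2.49 within lane 2 (adjusted p = 0.0234). In the UTX knockout it was -1.08 (SE 0.34), just over the threshold (adjusted p = 0.053; 0.0275 with the replicate number as a block; 0.0275 to 0.173 over all alternatives).

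Car12, a transmembrane isoform that in human tumours is induced with CA9 by low oxygen, had 4.61, 2.90 and 2.32 CPM in the UTX knockout, 2.42, 1.45 and 1.68 CPM in the labelled MLL4 knockdown and 7.22, 2.94 and 3.76 CPM in wild type. The labelled MLL4 knockdown lay below wild type (log2 fold change -1.32, SE 0.38), while the UTX knockout overlapped it (-0.50, SE 0.36). The first of these rests partly on wild type replicate 1, the highest library: without it the value was -0.84 (adjusted p = 0.0821). Replicate 1 was the highest library in every group, and only that of wild type was left out there. The fall in the labelled MLL4 knockdown also did not pass without its replicate 2 (-1.17, 0.101) or 3 (-1.26, 0.0872), or within lane 2 (-1.42, 0.104). Its adjusted p ranged from 0.00137 to 0.104 over all alternatives.

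Car7, a cytosolic isoform of neurons, was near the limit of detection, with 5 to 15 counts per library in the UTX knockout, 4 to 11 in the labelled MLL4 knockdown and 10 to 22 in wild type. In CPM these were 0.736, 0.346 and 0.232, then 0.592, 0.181 and 0.31, and in wild type 1.09, 0.938 and 0.448. Groups overlapped, and neither the UTX knockout (-0.91, SE 0.53) nor the labelled MLL4 knockdown (-1.20, SE 0.55) passed the threshold; the second passed with the replicate number as a block (-1.21, adjusted p = 0.0399; 0.0399 to 0.538 over all alternatives). Car7 lies on chromosome 8, whose 776 tested genes had a median log2 fold change of -0.44 in the UTX knockout and -0.42 in the labelled MLL4 knockdown. The medians over all genes were -0.01 and -0.02. Neural markers summed to 71.9 to 91.2 CPM in the UTX knockout, 155 to 173 CPM in the labelled MLL4 knockdown and 152 to 186 CPM in wild type. Single markers in the labelled MLL4 knockdown went opposite ways: Olig2 rose (105 CPM, against 20.5 CPM in wild type), and Nes (6.64 against 60.5 CPM) and Tubb3 (41.1 against 70.9 CPM) fell. The part of either in the Car7 values was not tested. Chromosomes 3, 9 and 11, which hold the other members, had medians between -0.01 and 0.09 in these comparisons.

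**Figure D1:**
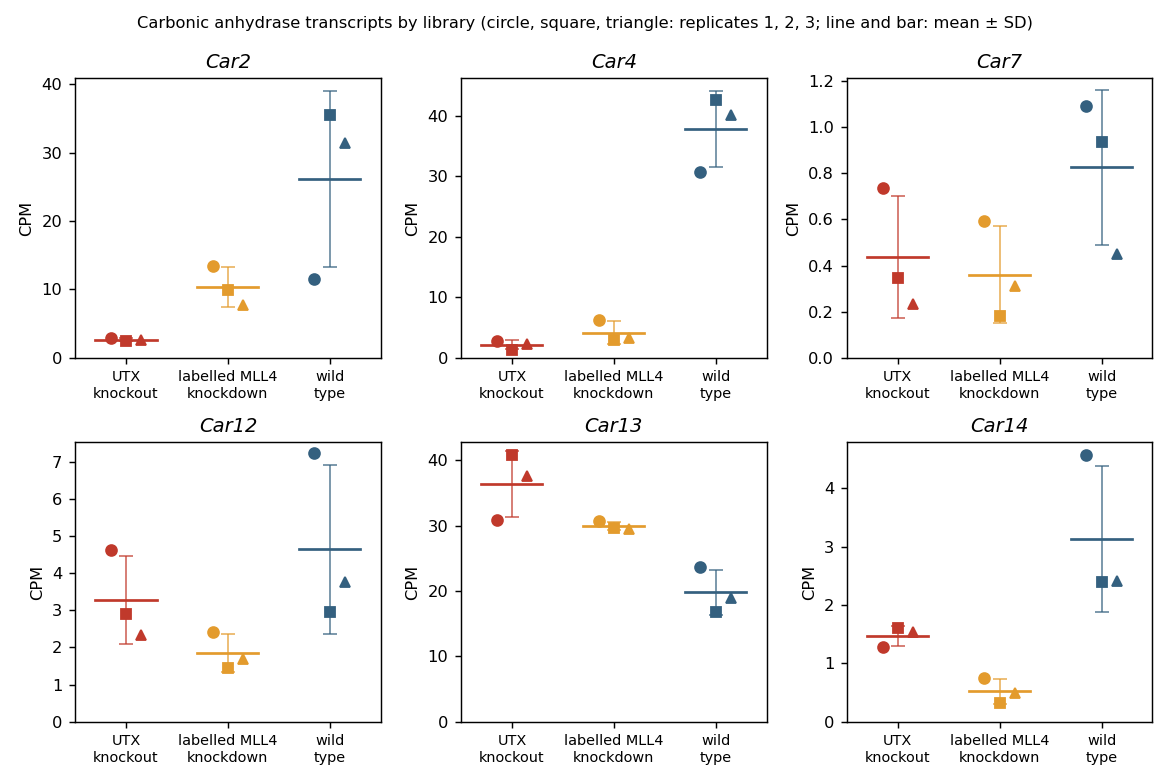
CPM of each of the 6 carbonic anhydrase genes in every library, with UTX knockout (red) left, labelled MLL4 knockdown (orange) in the middle and wild type (blue) right; symbols mark replicates, and lines and bars give the mean and SD of 3 libraries. Car4 lies near 0 in both perturbed groups (means 2.12 and 4.14 CPM against 37.8 CPM in wild type), Car13 is higher in both, and Car14 has separate ranges in the 3 groups.

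In numbers of calls, 2 of the 6 members fell (Car2 and Car4) and 1 rose (Car13) in the UTX knockout at an adjusted p under 0.05, where 15.5% of all tested genes were called, 6.55% up and 8.92% down (2285 genes, and 3446 with the replicate number as a block). In the labelled MLL4 knockdown 4 fell (Car2, Car4, Car12 and Car14) and 1 rose (Car13), against 26.6% of tested genes called, 10.8% up and 15.8% down. Libraries of the groups did not overlap for 4 members in the UTX knockout (Car13 above, Car2, Car4 and Car14 below), as for 31.5% of tested genes (15.5% above, 16.0% below). They did not overlap for 4 in the labelled MLL4 knockdown (Car13 above, Car4, Car12 and Car14 below), as for 42.9% (20.5% above, 22.4% below). Since these levels were known when the members were proposed, nothing is read from the counts. The median log2 fold change of the members was -0.99 in the UTX knockout and -1.34 in the labelled MLL4 knockdown, beside -0.01 and -0.02 over all tested genes.

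The perturbed groups were also set against each other directly. Wild type levels do not enter these differences, but the wild type libraries share the filter, scaling and spread of the fit. It called 4275 genes in this comparison, and 5871 were called in a fit of the 2 perturbed groups alone. Of the 6 members, Car2 was higher and Car14 lower in the labelled MLL4 knockdown than in the UTX knockout, with 28.9% of tested genes called, 13.0% up and 16.0% down. Car2 and Car4 lay above and Car13 and Car14 below without overlap, as 52.6% of tested genes did in either direction (25.7% above, 26.9% below). Car2 averaged 10.3 CPM ± 2.90 in the labelled MLL4 knockdown and 2.64 ± 0.184 in the UTX knockout (SD, n = 3 each), a log2 fold change of 1.97 (SE 0.38; within lane 2 1.96, adjusted p = 0.0522). Car14 averaged 0.519 CPM ± 0.22 in the labelled MLL4 knockdown and 1.47 ± 0.171 in the UTX knockout (-1.51, SE 0.40). The Car14 difference did not pass without UTX knockout replicate 2 (-1.45, adjusted p = 0.0531) or without replicate 2 (-1.25, 0.0695) or 3 (-1.48, 0.0565) of the labelled MLL4 knockdown, within a range of 0.00519 to 0.149. Car4, at 4.14 CPM ± 1.87 against 2.12 ± 0.746 in the UTX knockout, had a log2 fold change of 0.96 (SE 0.33) and sat at the threshold (adjusted p = 0.0503; 0.0379 with the replicate number as a block; 0.0105 to 0.218 over all alternatives). Car12 (-0.83, SE 0.38) passed with that block alone (-0.81, adjusted p = 0.0166; 0.0166 to 0.381 over all alternatives). Car13 (-0.28, SE 0.15) and Car7 (-0.29, SE 0.59) did not pass.

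**Figure D2:**
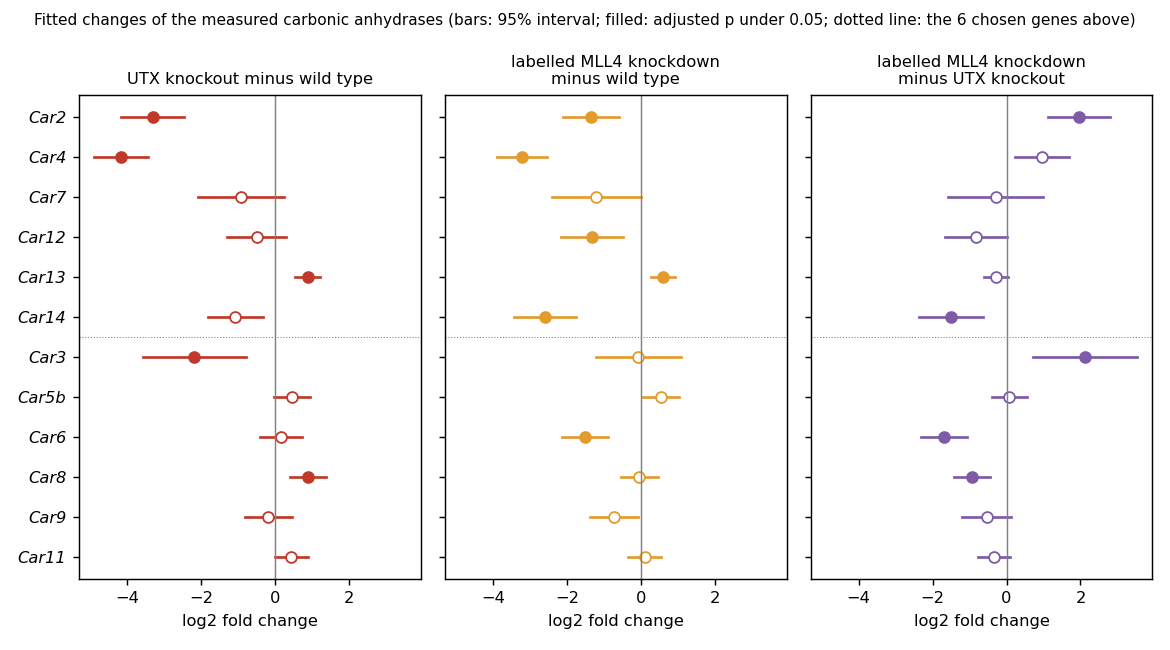
Fitted log2 fold changes with 95% intervals for the 12 tested carbonic anhydrases, as UTX knockout minus wild type (left), labelled MLL4 knockdown minus wild type (middle) and labelled MLL4 knockdown minus UTX knockout (right); filled points had an adjusted p under 0.05. Car4 has the lowest value in the left and middle panels (-4.16 and -3.20). Car2 and Car3 are the filled points to the right of 0 in the right panel, where Car4 also lies to the right but is not filled.

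To compare levels between genes, CPM was divided by exon length in kilobases. In wild type the order was Car4 (19.2 ± 3.18 CPM per kilobase), Car2 (10.8 ± 5.32), Car13 (8.61 ± 1.52), Car14 (1.23 ± 0.492), Car12 (0.611 ± 0.299) and Car7 (0.227 ± 0.0923; SD, n = 3). The ranges of Car2 and Car13 overlapped, and so did those of Car14 and Car12. In the UTX knockout the order was Car13 (15.9 ± 2.20), Car2 (1.09 ± 0.076), Car4 (1.08 ± 0.379), Car14 (0.578 ± 0.0671), Car12 (0.431 ± 0.157) and Car7 (0.120 ± 0.0727), with Car2 and Car4 overlapping, and Car14 and Car12. In the labelled MLL4 knockdown it was Car13 (13.0 ± 0.269), Car2 (4.27 ± 1.20), Car4 (2.11 ± 0.95), Car12 (0.244 ± 0.0668), Car14 (0.204 ± 0.0865) and Car7 (0.0992 ± 0.0578). There Car2 and Car4 overlapped by a narrow margin, Car12 overlapped Car14, and Car14 overlapped Car7. Outside the members, Car11 averaged 1.79 CPM per kilobase in the UTX knockout, above Car2 and Car4, and Car8 (1.09) and Car6 (1.08) were near them. Car11 averaged 1.42 in the labelled MLL4 knockdown and 1.32 in wild type, above the mean of Car14 in both.

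Summed over all 16 genes, the level was 24.7 ± 1.70 CPM per kilobase in the UTX knockout, 23.9 ± 2.66 in the labelled MLL4 knockdown and 45.4 ± 6.20 in wild type, and no perturbed library reached the lowest wild type library (38.3). Its make-up differed too. Car13 made up 64.0% ± 4.67 in the UTX knockout and 55.0% ± 4.73 in the labelled MLL4 knockdown, against 19.6% ± 6.43 in wild type. Car4 made up 4.46% ± 1.82 in the UTX knockout and 8.62% ± 2.87 in the labelled MLL4 knockdown, against 42.3% ± 1.33 in wild type. The share of Car2 was 4.44% ± 0.621 in the UTX knockout and 17.7% ± 3.08 in the labelled MLL4 knockdown, against 23.0% ± 9.25 in wild type.

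**Figure D3:**
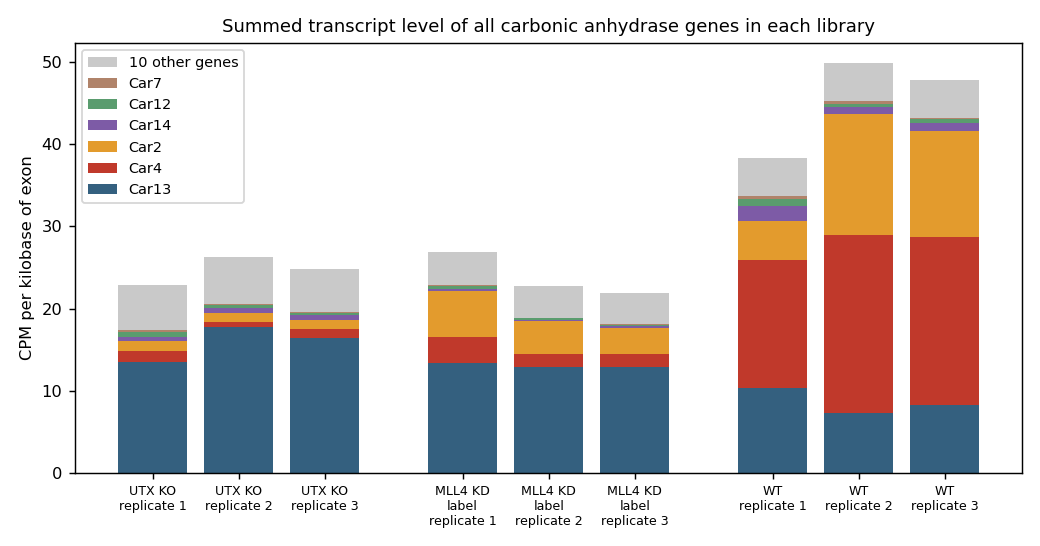
Summed level of the 16 carbonic anhydrase genes in each library, in CPM per kilobase of exon and stacked by gene, with the 3 UTX knockout libraries left, the 3 labelled MLL4 knockdown libraries in the middle and the 3 wild type libraries right. The sums run from 22.0 to 26.9 in the 6 perturbed libraries, where Car13 is the main part, and from 38.3 to 49.9 in wild type. There Car4 adds most, followed by Car2 in replicates 2 and 3 and by Car13 in replicate 1.

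Of the 10 other carbonic anhydrases, 6 were tested. In the UTX knockout Car8 rose, Car3 fell and 4 did not pass, where 15.5% of all tested genes were called. In the labelled MLL4 knockdown Car6 fell and 5 did not pass, where 26.6% were called. The median log2 fold change of the 6 was 0.30 in the UTX knockout and -0.05 in the labelled MLL4 knockdown. Car8, a catalytically inactive protein of Purkinje cells, had 3.93, 4.06 and 4.60 CPM in the UTX knockout and 1.77, 2.64 and 2.28 CPM in wild type (log2 fold change 0.90, SE 0.22, adjusted p = 0.0198). Its libraries did not overlap, but with UTX knockout replicate 2 or 3 left out it did not pass (0.93, adjusted p = 0.0661, and 0.86, 0.0704), within a range of 0.00523 to 0.138. Car8 was 2.18 CPM ± 0.25 in the labelled MLL4 knockdown and 2.23 ± 0.441 in wild type, and it fell against the UTX knockout (-0.94, SE 0.22, adjusted p = 0.00952). Car6, the isoform secreted in saliva, had 0.753, 0.453 and 0.62 CPM in the labelled MLL4 knockdown and 1.87, 1.53 and 1.84 CPM in wild type (-1.52, SE 0.28, adjusted p = 0.00294), and it also fell against the UTX knockout (-1.68, SE 0.28, adjusted p = 0.00161). Car6 and Car8 lie on chromosome 4, whose tested genes had median log2 fold changes of -0.15 in the UTX knockout and -0.21 in the labelled MLL4 knockdown; the part of that shift was not tested. Car9, the hypoxia-induced transmembrane isoform, averaged 1.71 CPM ± 0.54 in the UTX knockout, 1.17 ± 0.202 in the labelled MLL4 knockdown and 1.94 ± 0.0962 in wild type, and did not pass in either (adjusted p = 0.723 and 0.0968).

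The inactive Car11 had log2 fold changes of 0.44 (SE 0.20, adjusted p = 0.159) in the UTX knockout and 0.11 (SE 0.20, 0.739) in the labelled MLL4 knockdown. The mitochondrial Car5b had 0.46 (SE 0.22, adjusted p = 0.185) in the UTX knockout and 0.54 (SE 0.22, 0.0976) in the labelled MLL4 knockdown. The remaining 4 were too rare to test. The mitochondrial Car5a had 1 to 7 counts per library. Car1, the red cell isoform, and Car15, a membrane-anchored isoform, had at most 1 and 2 counts. Car10, an inactive form, had at most 5 counts. Differences of these genes were not detectable at this depth.

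The family genes Car13, Car1, Car3 and Car2 follow one another on chromosome 3 in the GENCODE annotation. The ends of this cluster differed in direction in the UTX knockout: Car13 was higher, Car2 was lower, and Car3, an isoform of muscle and fat, fell with it. Car3 had 7, 5 and 1 counts in UTX knockout replicates 1 to 3 and 25, 18 and 17 in wild type (log2 fold change -2.19, SE 0.64, adjusted p = 0.0392). That call ended when any of the wild type replicates (-1.88 to -2.32, adjusted p between 0.0594 and 0.0757), UTX knockout replicate 2 (-2.25, 0.123) or 3 (-1.71, 0.129) or replicate 2 of the labelled MLL4 knockdown (-2.19, 0.0613) was left out. In the libraries labelled MLL4 knockdown Car3 had 29, 17 and 9 counts, while its log2 fold change was -0.06 (SE 0.53) against wild type and 2.12 (SE 0.64, adjusted p = 0.0285) against the UTX knockout. The call against the UTX knockout did not hold without its replicate 2 (2.19, adjusted p = 0.0846) or 3 (1.67, 0.0967), nor without replicate 1 (1.51, 0.127) or 2 (2.23, 0.0576) of the labelled MLL4 knockdown, within a range of 0.00393 to 0.156.

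Neighbouring genes were taken by position after the values had been seen. On the Car13 side, 1810022K09Rik had log2 fold changes of -0.17 (SE 0.15, adjusted p = 0.454) in the UTX knockout and -0.12 (SE 0.15, 0.58) in the labelled MLL4 knockdown. The cell-cycle factor gene E2f5, next along, had 0.30 (SE 0.10, adjusted p = 0.0663) in the UTX knockout and rose by 0.67 (SE 0.10, 0.000896) in the labelled MLL4 knockdown. On the Car2 side the next 3 coding genes had no counts in any library. For Car4, the neighbours Znhit3 (-0.27, SE 0.18, adjusted p = 0.355) and Usp32 (0.21, SE 0.17, 0.43) did not pass in the UTX knockout, nor in the labelled MLL4 knockdown (0.11, SE 0.18, 0.699 and -0.06, SE 0.17, 0.831). For Car14, Aph1a and Anp32e did not pass in either comparison with wild type (adjusted p between 0.072 and 0.904). Further out, BC028528 fell in the labelled MLL4 knockdown (-2.67, SE 0.37, adjusted p = 0.000556), with 0.43, 0.181 and 0.221 CPM there and 1.66, 2.17 and 1.43 CPM in wild type, a difference near that of Car14. Plekho1, on the other side, fell in the UTX knockout (-0.94, SE 0.20, adjusted p = 0.0107), though not without UTX knockout replicate 2 (-0.89, 0.0551). For Car7, Nae1 (-0.38, SE 0.11, adjusted p = 0.0348) and Rrad (-2.68, SE 0.53, 0.0077, from 1 to 2 counts per library against 10 to 12 in wild type) fell in the UTX knockout. Both lie on chromosome 8, whose tested genes had a median log2 fold change of -0.44 in the UTX knockout. The part of that shift was not tested. Nae1 did not pass without any 1 of 8 libraries (adjusted p 0.051 to 0.108), the exception being wild type replicate 3. For Car12, Aph1b rose there (0.90, SE 0.22, adjusted p = 0.0206), though not without wild type or UTX knockout replicate 2 or 3 (0.0508 to 0.1). For Car4, Myo19 rose in the labelled MLL4 knockdown (0.59, SE 0.14, adjusted p = 0.00848). Lrrcc1, beyond E2f5, rose in the UTX knockout (0.47, SE 0.14, adjusted p = 0.0403) and in the labelled MLL4 knockdown (0.53, SE 0.14, 0.016). In the UTX knockout Lrrcc1 did not pass without any 1 of 8 libraries (0.0583 to 0.107), the exception being wild type replicate 1, and in the labelled MLL4 knockdown not without its replicate 3 (0.51, 0.0591).

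**Figure D4:**
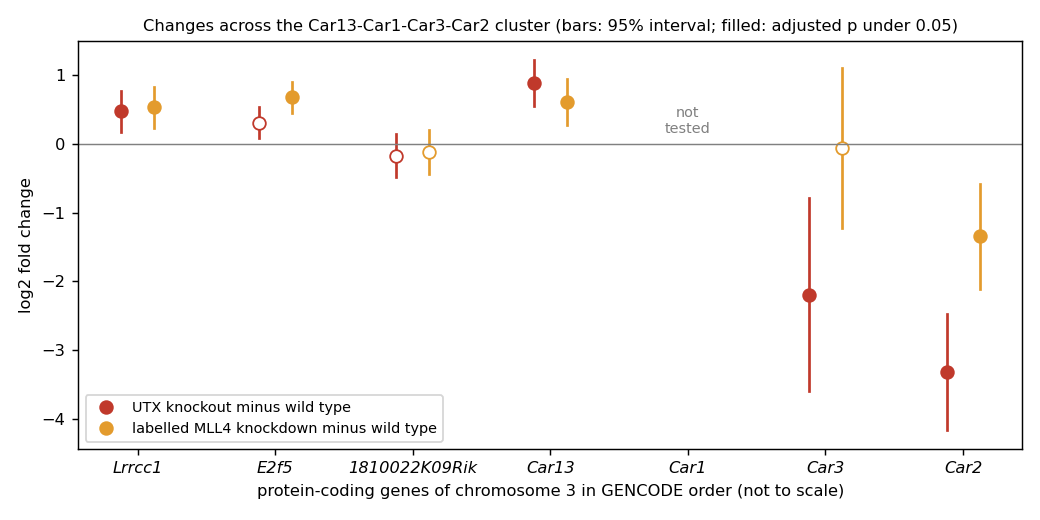
Log2 fold changes with 95% intervals for the 4 carbonic anhydrases of the chromosome 3 cluster and the 3 coding genes before it, in annotation order, for UTX knockout minus wild type (red, left of each pair) and labelled MLL4 knockdown minus wild type (orange, right); filled points had an adjusted p under 0.05 and Car1 was not tested. Car13 lies above 0 in both, Car2 below 0 in both, and Car3 was called in the UTX knockout, at -2.19 against -0.06 in the labelled MLL4 knockdown.

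The genes whose log2 CPM followed each member most closely over the 9 libraries were searched among 9998 genes with a mean log2 CPM of at least 2. For Car4 they were Vac14 (Pearson r = 0.985), Odc1 (0.979) and Cuedc1 (0.976), and for Car2 Krcc1 (0.987), Kctd15 (0.978) and Mrpl37 (0.974). For Car13 they were Cpt1a (0.984), Galc (0.983) and Sc5d (0.979), for Car14 Nes (0.985), Zfp639 (0.984) and Myb (0.979), and for Car12 St6gal1 (0.975), Zfp600 (0.969) and L1cam (0.965). Car7, with few reads, had Gkap1 (0.937), Fkbp11 (0.933) and Mutyh (0.931). The 9 libraries form 3 groups, so for members whose groups lay apart these values mostly describe a shared order of the groups. For Car12 and Car7, where groups overlapped, the values also follow the replicate number. Replicate 1 was the highest library of every group for both members and for the genes named beside them. St6gal1, for example, had 16.1 CPM in replicate 1 of the labelled MLL4 knockdown, against 10.5 and 12.7 CPM in replicates 2 and 3. The size of the differences was not shared: against wild type in the UTX knockout Vac14 was at -0.76 and Odc1 at -0.62, where Car4 was at -4.16. Vac14 lies on chromosome 8, with the shift given above.

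Genes of ion, acid and water transport, with scaffolds and chaperones, are given beside the shares of all tested genes called. These shares were 6.55% up and 8.92% down in the UTX knockout and 10.8% up and 15.8% down in the labelled MLL4 knockdown. The Slc4 and Slc26 families were listed together as bicarbonate transporters, though some members carry other ions. Of their 14 tested genes, 2 rose and 1 fell in the UTX knockout, with a median log2 fold change of 0.01. In the labelled MLL4 knockdown 4 fell and 10 did not pass, with a median of -0.25. Slc4a11, an Slc4 member known for proton or hydroxide transport, averaged 5.91 CPM ± 0.751 in the labelled MLL4 knockdown and 25.4 ± 4.65 in wild type (-2.10, SE 0.19, adjusted p = 3.11e-05), with 24.3 ± 4.15 in the UTX knockout. Slc4a5, a sodium bicarbonate cotransporter, averaged 5.55 CPM ± 1.54 in the labelled MLL4 knockdown and 17.5 ± 5.05 in wild type (-1.66, SE 0.26, adjusted p = 0.00103). The chloride transporter Slc26a9 averaged 0.298 CPM ± 0.225 and 2.61 ± 1.34 in these groups (-3.16, SE 0.54, adjusted p = 0.00185). These 3 also fell against the UTX knockout (-2.03, SE 0.19; -1.30, SE 0.26; -3.01, SE 0.55; adjusted p at most 0.00411), where 7 of the 14 fell, beside 16.0% of all tested genes, and Slc4a4, another sodium bicarbonate cotransporter, rose (1.01, SE 0.24, adjusted p = 0.0102).

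The anion exchanger Slc4a1 stood at 2.44 CPM ± 0.251 in the UTX knockout and 0.762 ± 0.0497 in the labelled MLL4 knockdown, against 1.30 ± 0.0978 in wild type, so that it rose in the first (0.91, SE 0.24, adjusted p = 0.0257) and fell in the second (-0.76, SE 0.26, adjusted p = 0.0495). The direct difference between the perturbed groups was -1.67 (SE 0.25, adjusted p = 0.000896). Against wild type the fall did not pass when any of the 9 libraries was left out (-0.69 to -0.81, adjusted p between 0.0501 and 0.153), and the rise did not pass without UTX knockout replicate 2 (0.89, adjusted p = 0.0964) or 3 (0.87, 0.0901) or wild type replicate 2 (0.90, 0.0537) or 3 (0.86, 0.0714). Slc26a6, an apical anion exchanger, rose in the UTX knockout (0.68, SE 0.17, adjusted p = 0.021), but not without UTX knockout replicate 2 (0.61, 0.097) or wild type replicate 3 (0.62, 0.0617). The sulphate transporter Slc26a1 fell there (-1.78, SE 0.54, adjusted p = 0.045). That call ended without any of the UTX knockout or wild type libraries (-1.44 to -1.98, adjusted p between 0.0534 and 0.137) or replicate 3 of the labelled MLL4 knockdown (-1.78, 0.0707).

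Of 7 tested sodium-proton exchanger genes and their scaffolds, 3 fell in the labelled MLL4 knockdown, beside 15.8% of all tested genes: the scaffold Slc9a3r1 (-1.18, SE 0.16, adjusted p = 0.000471), the exchanger Slc9a5 (-0.76, SE 0.13, 0.0019) and the scaffold Slc9a3r2 (-0.62, SE 0.19, 0.0298). The last was not called without wild type replicate 2 (-0.48, adjusted p = 0.0878) or 3 (-0.60, 0.0682) or without any library of the labelled MLL4 knockdown (-0.57 to -0.67, 0.072 to 0.108). In the UTX knockout edgeR called 0 of the 7, with 2 at an unadjusted p under 0.05 and 1 called by DESeq2. Of 5 tested monocarboxylate transporters and chaperones, the chaperone Emb fell in the labelled MLL4 knockdown (-0.48, SE 0.12, adjusted p = 0.0117), though not without its replicate 2 (-0.47, 0.0562), and edgeR called 0 in the UTX knockout, with 0 at an unadjusted p under 0.05 and 0 by DESeq2. The chaperone Bsg fell against the UTX knockout (-0.83, SE 0.19, adjusted p = 0.00875). Slc9a5 lies on chromosome 8, with the shift given above. Of 5 tested aquaporins 3 fell in the labelled MLL4 knockdown, beside 15.8% of all tested genes. Aqp3, a channel for water and glycerol, averaged 8.53 CPM ± 0.705 in the labelled MLL4 knockdown and 58.0 ± 15.4 in wild type (-2.77, SE 0.31, adjusted p = 0.000139). Aqp11 (-0.77, SE 0.23, adjusted p = 0.028) and Aqp9 (-1.61, SE 0.54, adjusted p = 0.0486) fell there too. Aqp11 did not pass without wild type replicate 1 or 3 or any library of the labelled MLL4 knockdown (adjusted p 0.0664 to 0.0996). Aqp9 did not pass without wild type replicate 1 or 2, any UTX knockout library, or replicate 2 or 3 of the labelled MLL4 knockdown (0.0518 to 0.171), and its value ran from -2.57 without replicate 1 of the labelled MLL4 knockdown to -1.24 without wild type replicate 1. In the UTX knockout Aqp9, a channel for glycerol, fell (-3.31, SE 0.63, adjusted p = 0.00652). The receptor phosphatases Ptprg and Ptprz1, which carry a carbonic anhydrase-like domain, were not called by edgeR or DESeq2 in any of the 3 comparisons, with Ptprg at an unadjusted p of 0.0328 in the UTX knockout.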

How the data were processed

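Whole-number read counts per gene symbol, 1 column per library, were deposited by the authors. Per the submitters' processing notes, tools were STAR 2.4 and HTSeq 0.6.1; genome builds listed there are mm9 together with hg19, without roles. No source used here states the annotation or strand setting, so reads of overlapping or antisense genes cannot be told apart. The kit was TruSeq, per the labels.

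From the counts, edgeR 4.0.16 in R 4.3.3 fitted group means over the 9 libraries together: filterByExpr, TMM, quasi-likelihood test, two-sided, Benjamini-Hochberg over 14772 genes, threshold 0.05. CPM uses TMM-scaled totals. SE is that of the fitted contrast. Fold changes of low genes depend on edgeR's prior count. Exon lengths and gene order come from GENCODE M21 (GRCm38), not the authors' build; union exon length understates genes with many isoforms. The test was checked on simulated data. Alternatives were RLE size factors, DESeq2 1.42.0, 2 other filters, 2 groups only, lane 2 only, a replicate block, removal of each library's length trend, and each library left out.

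Members and lists were chosen with earlier results of these data known. Named were all members, all other carbonic anhydrases, up to 4 called genes of smallest p per transporter list (a selection of these is printed), and the 3 genes most like each member by Pearson r of log2 CPM (prior count 2), leaving out clone, model and small RNA names. Deviations from group means correlated between libraries of equal replicate number (0.168 to 0.467 across genes, all 9 pairs over 0.1). From this check and the titles, the replicate block took the replicate numbers to pair libraries. The main fit, which gave all values printed without a named alternative, had group only and left this pairing out. Replicates all differed beyond counting noise, with chi-square over its degrees of freedom at 6.42 to 56.5. No exact permutation test is given, since 3 against 3 reaches 0.1 at best. RefSeq promoters were searched for 5 motifs on both strands.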

Additional observations from a re-analysis of the deposited data

How the results depend on the processing

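Among all genes, the number called in the UTX knockout against wild type was 2285, with 1240 in a fit of the 2 groups compared, 3446 with the replicate block, 74 in lane 2 alone and 833 to 2854 when 1 library was left out. For the labelled MLL4 knockdown against wild type it was 3930, with 1341 in lane 2 and 2273 to 4108 when 1 library was left out. Against the UTX knockout it was 4275, with 1535 in lane 2 and 2556 to 5281. In the same order, members called numbered 3, 5 and 2, and in lane 2 alone, with 2 libraries a group, 1, 2 and 0; edgeR gave 4, 4 and 3 of them there an unadjusted p under 0.05. DESeq2 on all libraries called 4, 5 and 3. Leaving out 1 library gave 3 to 3, 3 to 5 and 1 to 3, and the replicate block gave 4, 6 and 4. Lane 1 held 1 library a group and gives no value. Car4 against wild type passed under every alternative in both comparisons, as did Car14 in the labelled MLL4 knockdown. No call of a single gene changed sign. Values not called changed sign for Car9 in the UTX knockout (-0.38 to 0.07 when 1 library was left out, 0.074 without UTX knockout replicate 3), Car8 in the labelled MLL4 knockdown (0.11 in lane 2, 0.0073 with the length trend removed, -0.15 to 0.11 with 1 library left out) and Car3 there (-0.67 to 0.31). Between the perturbed groups they changed sign for Car7 (-0.80 to 0.28) and Car5b (-0.00055 to 0.15). The cause was not tested. The replicate block changed no other call of a carbonic anhydrase, nor of the called transporter genes and neighbours followed under the alternatives. Other named genes were in that fit too, but their values under the block were not compared. Scaling moved the median of all genes by under 0.1 on the log2 scale. Counts under about 20 per library limit Car7, Car3, and, in the labelled MLL4 knockdown, Car6 and Car14.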
